A study of Nezara viridula with 24 samples.

Results

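In the adult midgut of Nezara viridula, the southern green stink bug, 55 genes had similar levels in the sections M1 and M2 and a much lower level in M3. They were chosen from 201329 Trinity genes, which are groups of assembled transcripts built from the reads themselves. Levels are CPM, a gene's count divided by the total of its library and multiplied by 1000000. For each gene the median CPM of a section's 6 libraries, both diets together, plus 0.5 gave 3 levels called m1, m2 and m3. A member gene had m2 of at least 10, m1/m2 between 0.5 and 2, and m2/m3 of at least 5. Of 5828 genes with m2 of at least 10, 168 had m2/m3 of at least 5. Among these, 54 had m1/m2 under 0.5, 59 had m1/m2 over 2, and the 55 in between are the members. Section levels over both diets chose the genes, so they are given as a description and without a test.

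RNA was sequenced from green bean-fed and corn-fed adults, with M1, M2, M3 and the salivary glands dissected on each diet. Insects ate the food in question for 24 h after becoming adults, and each of the 8 groups has 3 libraries of polyA RNA, each a pool of tissue from 4 to 10 insects. Strain and sex are not given in the sources used here. The labels do not say whether separate cultures supplied the pools. The p-values therefore rest on the spread between these pools, which may be partly technical.

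Stink bugs feed by piercing plant tissue, injecting saliva and taking up the liquefied food. The swallowed food passes along a midgut that is divided by constrictions into sections, of which M1 is the sac-like first one, M2 a narrow tube and M3 a further swelling ahead of the section that houses symbiotic bacteria in many species. In true bugs much of protein digestion in the gut is carried out by cysteine and aspartic proteases, and digestive and transport genes are commonly unequal between gut sections. The deposited identifiers carry no gene names or descriptions, so no function can be given to any member and the tissues could not be checked against marker genes. In tissue pools, fewer cells of a type and less RNA per cell cannot be told apart.

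Library totals ran from 17819164 to 33954593 estimated counts, so that 3 counts correspond to 0.0884 to 0.168 CPM. The midgut libraries of corn replicate 1 detected 94335 to 122664 genes with at least 1 count, those of corn replicates 2 and 3 detected 38270 to 59476, and the green bean libraries 64667 to 93477. In glands, corn replicate 1 detected 79903 genes, and corn replicates 2 and 3 detected 34833 and 37040. This division within corn is not named in the labels. Diet tests in midgut are therefore also given without each kind of corn library, except that of M3 over the mean of M1 and M2. The gland tests are given with all corn libraries only.

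The members' m2 ran from 10.5 to 6677 with a median of 45.6, and their m3 from 0.5, the level of a gene with a median of 0 CPM, to 531 with a median of 4.78. The median of m1 was 37.7. The ratio m1/m2 had a median of 0.945, and m2/m3 had a median of 8.21 and a highest value of 152. For 23 members m2/m3 was at least 10, for 14 at least 20 and for 4 at least 50, while 14 lay under 6. CPM takes no account of transcript length, so an order of members by CPM is an order of counts.

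**Figure D1:**
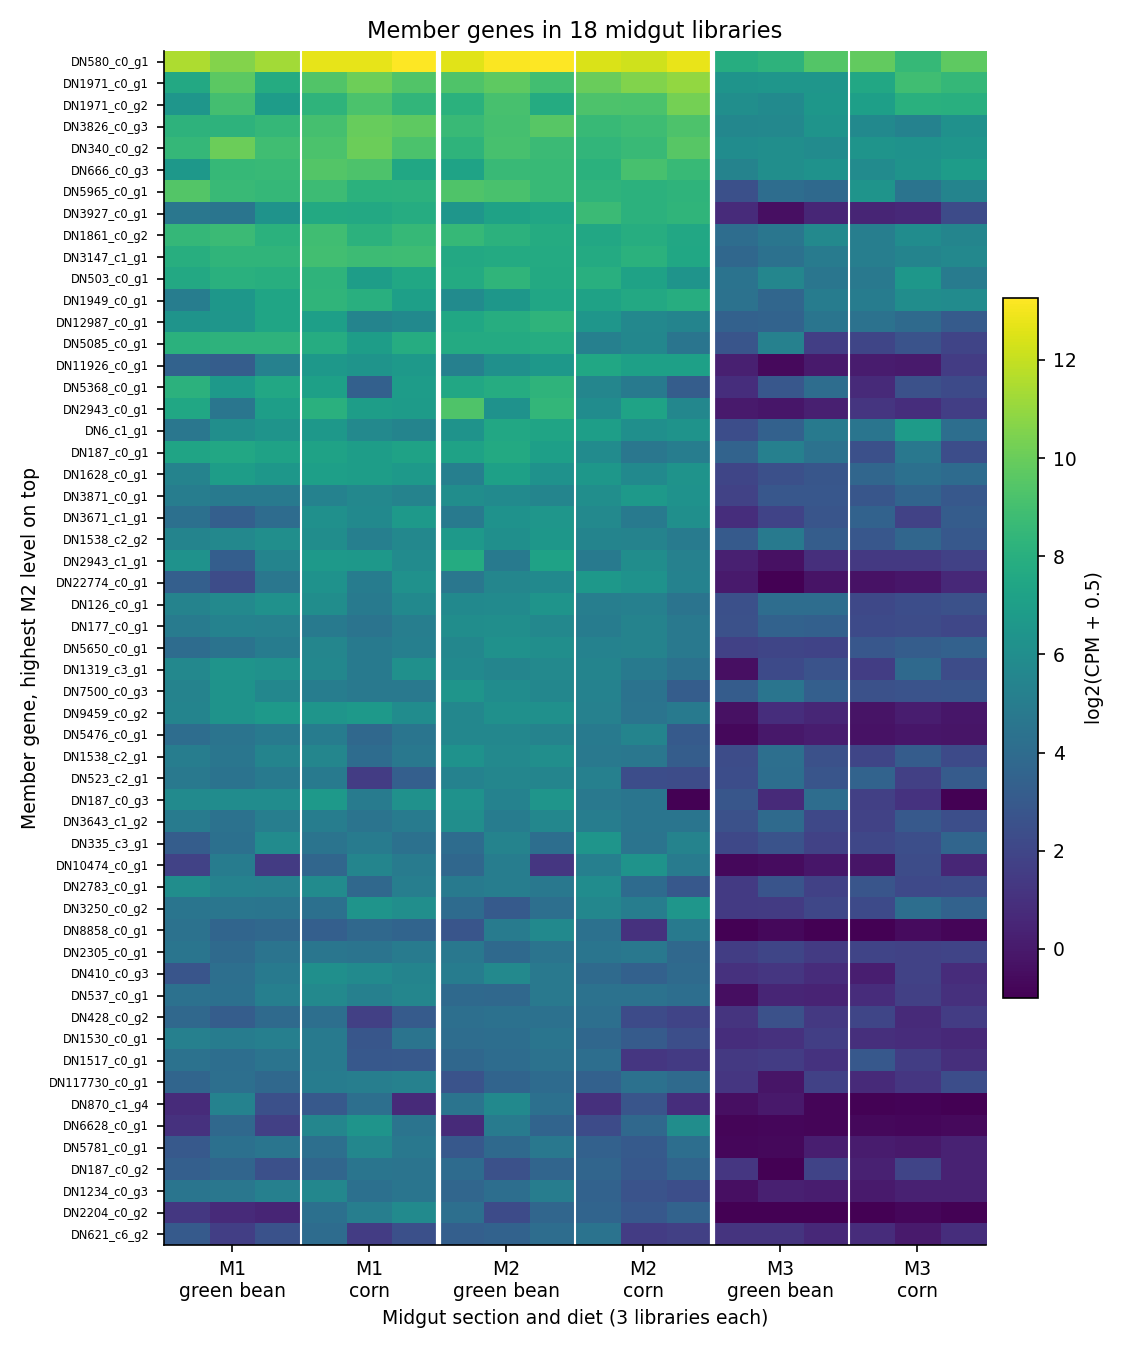
Level of each of the 55 member genes, as log2(CPM + 0.5), in the 18 midgut libraries. Genes run down the page by falling m2, and columns run by section and diet with replicates 1 to 3 side by side (identifiers without their TRINITY prefix). Nearly all rows darken in the 6 M3 columns, and in 36 rows every M3 library lies below every M1 and M2 library.

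TRINITY_DN580_c0_g1 had the largest counts of all members. In M1 it stood at 2930.2, 1557 and 2443 CPM on green bean (replicates 1 to 3) and at 6678, 6739 and 9774 CPM on corn. In M2 it stood at 6309, 9193 and 9793 CPM on green bean and at 5629, 4814 and 7044 CPM on corn. All 6 M2 libraries were thus high, whereas in M1 every green bean library lay below every corn library. In M3 the gene had 237, 298 and 687 CPM on green bean and 924, 373 and 857 CPM on corn, below every M1 and M2 library.

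TRINITY_DN1971_c0_g1 came next by counts. Its green bean libraries had 191, 802 and 215 CPM in M1, 635, 855 and 500.2 CPM in M2, and 82.8, 90.4 and 88.1 CPM in M3. Its corn libraries had 658, 1111 and 659 CPM in M1, 1029, 1492 and 1975 CPM in M2, and 189, 478 and 356 CPM in M3. Levels were lowest in M3 within each diet, but corn M3 replicate 2 lay above green bean M1 replicates 1 and 3, so the sections overlap when the diets are put together. TRINITY_DN1971_c0_g2, assembled from the same component of overlapping reads, had m2 of 578 and m3 of 113. It overlapped also within green bean, where M3 replicate 3 at 92.4 CPM lay above M1 replicate 1 at 90.6 CPM.

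TRINITY_DN3826_c0_g3, TRINITY_DN340_c0_g2 and TRINITY_DN666_c0_g3 followed with m2 of 493, 412 and 396. TRINITY_DN3826_c0_g3 ranged over 296 to 996 CPM in the 6 M1 libraries, 384 to 756 CPM in M2 and 40.0 to 83.7 CPM in M3. TRINITY_DN340_c0_g2 ranged over 364 to 1061 CPM in M1, 309 to 762 CPM in M2 and 58.1 to 86.5 CPM in M3. In both genes the lowest M1 or M2 library lay more than 3 times above the highest M3 library. TRINITY_DN666_c0_g3 ranged over 98.3 to 692 CPM in M1, 154 to 552 CPM in M2 and 41.0 to 117 CPM in M3, with corn M3 replicate 3 above green bean M1 replicate 1.

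The members with the largest m2/m3 were TRINITY_DN3927_c0_g1 at 152, TRINITY_DN11926_c0_g1 at 112 and TRINITY_DN2943_c0_g1 at 76.7. TRINITY_DN3927_c0_g1 had 24.2, 22.4 and 79.1 CPM in green bean M1 and 203, 196 and 224 CPM in corn M1. In M2 it had 90.7, 150 and 176 CPM on green bean and 427, 285 and 317 CPM on corn. Its M3 libraries held 1.19, 0.236 and 0.971 CPM on green bean and 0.888, 1.06 and 4.35 CPM on corn, so that the highest M3 library was still below the lowest of M1 by a factor of more than 5. TRINITY_DN11926_c0_g1 had the same order of groups, from 8.78 CPM in its lowest M1 library and 181 CPM in its highest M2 library down to 0.147 to 2.40 CPM in M3. TRINITY_DN2943_c0_g1 varied more within groups, with 645, 75.9 and 353 CPM in green bean M2, but had only 0.412 to 2.65 CPM in M3.

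**Figure D2:**
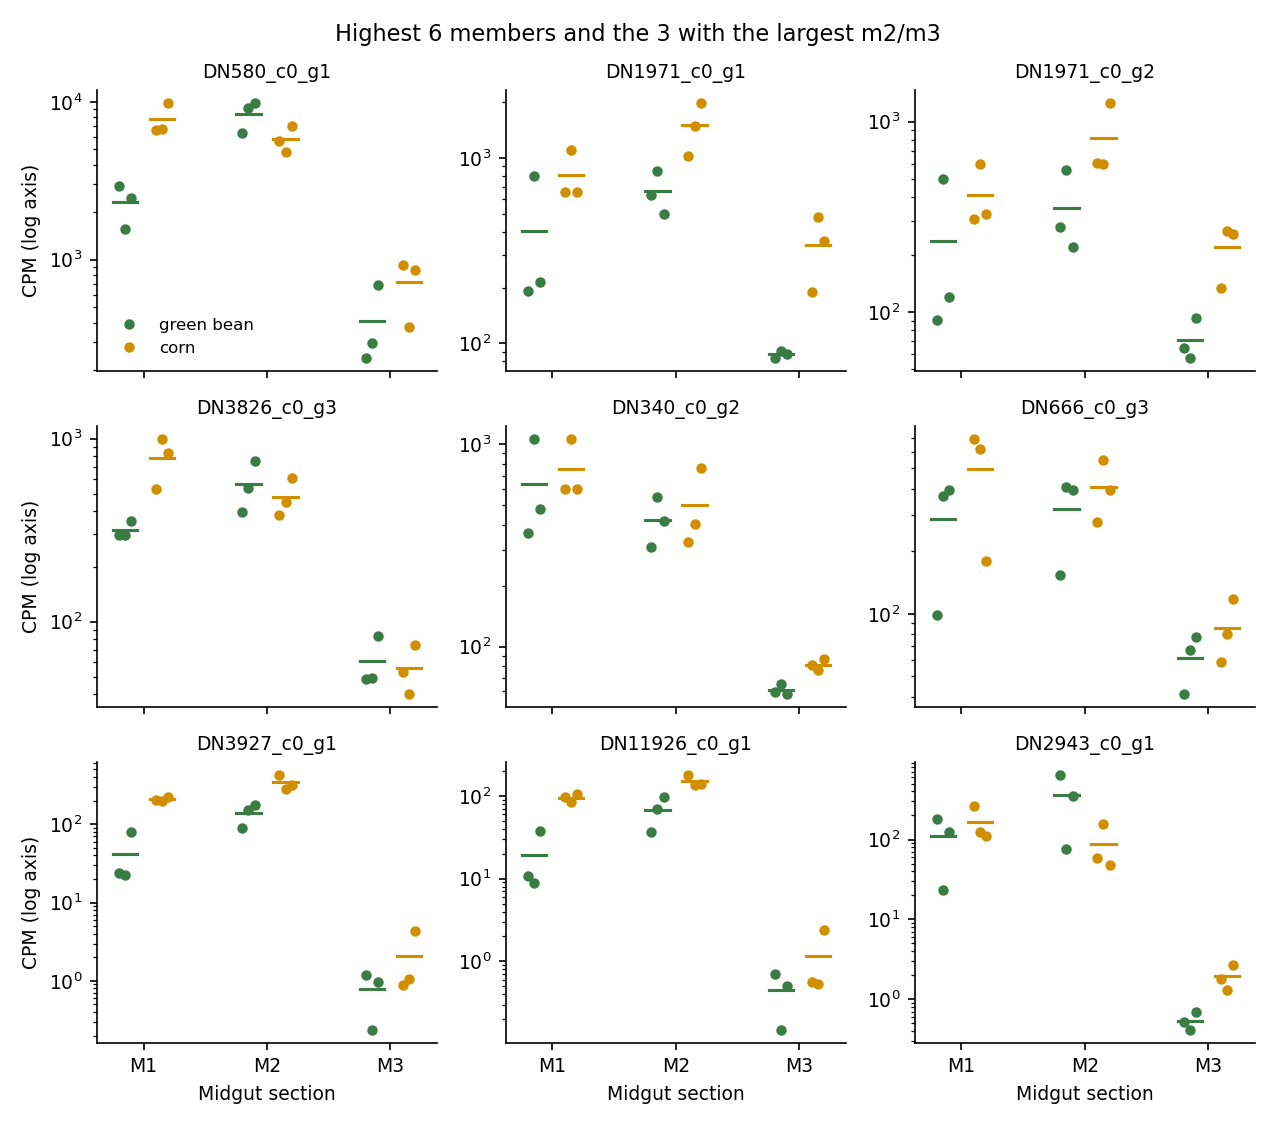
CPM in every midgut library (points, log axis) of the 6 members with the highest m2 and the 3 with the highest m2/m3, by section, with green bean left of corn and horizontal bars at the mean of 3 libraries. In each panel and diet the mean of M3 lies below those of M1 and M2, while single libraries overlap for TRINITY_DN1971_c0_g1, TRINITY_DN1971_c0_g2 and TRINITY_DN666_c0_g3. For TRINITY_DN3927_c0_g1 and TRINITY_DN11926_c0_g1 the green bean points of M1 and M2 lie below the corn points.

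Counts did not vanish from M3 for any member. A median under 1 CPM in M3 was found for 11 of 55, and no member was without counts in all 6 M3 libraries. The nearest to it was TRINITY_DN2204_c0_g2, with 0 counts in the 3 green bean M3 libraries, where 3 counts per library would be 0.0884 to 0.116 CPM, and 3 counts in all of corn M3. Every M3 library lay below every M2 library for 40 members, below every M1 library for 43, and below all 12 libraries of M1 and M2 for 36. Among all 23008 genes tested, 1.38% had such a separation of M3 from M1 and M2, a share that cannot be read against the members because the section levels chose them.

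The threshold cuts through a continuous range of genes. Just inside it were TRINITY_DN1949_c0_g1 with m2/m3 of 5.03 (m2 160, m3 31.8) and TRINITY_DN523_c2_g1 with 5.05 (m2 38.5, m3 7.62). Just outside were TRINITY_DN725_c1_g2 with 4.89 (m2 17.7, m3 3.62) and TRINITY_DN3918_c0_g1 with 4.87 (m2 935, m3 192). A further 133 genes met the other criteria with m2/m3 over 2 and under 5, called partly lower here. In 4854 genes both m1/m2 and m2/m3 lay between 0.5 and 2, and these serve as genes kept along the midgut.

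**Figure D3:**
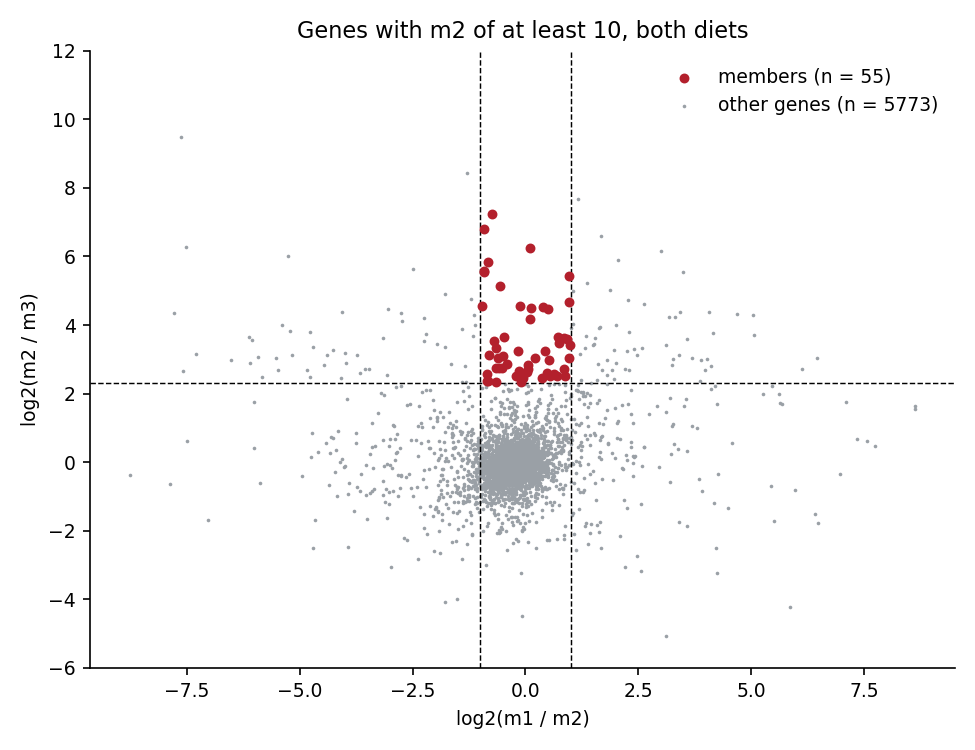
log2 of m2/m3 against log2 of m1/m2 for the 5828 genes with m2 of at least 10, members in red and the others in grey, with dashed lines at the limits of the rule. Most genes lie near 0 on both axes, and the 55 members continue into genes on every side of the box without a gap.

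Together the members held a small part of each library. Their share of all counts was 0.770% ± 0.0269 in green bean M1 and 1.503% ± 0.102 in corn M1, 1.52% ± 0.226 in green bean M2 and 1.25% ± 0.186 in corn M2, and 0.108% ± 0.0371 in green bean M3 and 0.197% ± 0.0171 in corn M3 (SD, n = 3 each). TRINITY_DN580_c0_g1 alone accounted for 0.231% ± 0.0696 of green bean M1 and 0.773% ± 0.177 of corn M1. It held 0.843% ± 0.186 of green bean M2 and 0.583% ± 0.113 of corn M2. Without it the members' shares were 0.539% in green bean M1 against 0.730% in corn M1, and in M2 they were 0.675% on green bean against 0.664% on corn.

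To test the fall in libraries that had no part in choosing the genes, the same rule was applied to one diet and M3 was compared with M2 in the other, an analysis chosen after seeing the data. On corn libraries alone the rule gave 29 genes, 20 of them members. In a fit of the green bean libraries alone, 24 of these 29 were lower in M3 than in M2 (edgeR adjusted p under 0.05), against 4.24% of all 19611 genes tested, and their median log2 fold change was -3.93, against 0.09 over all genes. On green bean libraries alone the rule gave 79 genes, 33 of them members. In the corn libraries 49 of the 79 were lower in M3 than in M2, against 1.87% of 16790 genes, with a median log2 fold change of -2.72, against 0.02 over all genes. With a replicate block this count was 67, against 4.4% of all genes. The block takes same-numbered corn libraries as paired, which the labels do not state. Deviations of same-numbered corn M2 and M3 libraries correlated at 0.607, 0.257 and 0.545. Shared insects cannot be told apart here from the division of corn replicate 1 from replicates 2 and 3. Without the block, the count was 30 when corn M2 replicate 2 was left out, against 1.13%. It was also 30 without corn M3 replicate 1, against 0.989%. No gene of either list was called higher in M3. Set against M1, which shares the M3 libraries with these comparisons, 25 of the 29 genes were lower in green bean M3 (9.47% of all genes), and 76 of the 79 in corn M3 (6.49%).

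While most of the chosen genes fell on both diets, few met the whole rule on both. Of the 29 genes chosen on corn, 25 had m2/m3 of at least 5 on green bean, but only 14 had m1/m2 between 0.5 and 2 there. Of the 79 chosen on green bean, 36 had m2/m3 of at least 5 and 38 had m1/m2 in that range on corn. The rule was met on each diet alone by 11 genes, of which 10 are members. Among the members, m2/m3 was at least 5 for 51 on green bean but for only 34 on corn. The whole rule was met by 33 members on green bean alone and by 20 on corn alone. On corn, 48 members had m2 of at least 10. TRINITY_DN1517_c0_g1, TRINITY_DN428_c0_g2 and TRINITY_DN621_c6_g2 had m2/m3 of 0.904, 1.62 and 1.84 on corn. TRINITY_DN523_c2_g1, just inside the threshold, likewise met the rule on the pooled medians but not on corn. Its m2/m3 was 6.60 on green bean and 0.611 on corn, with 37.1, 4.71 and 4.50 CPM in corn M2 and 11.1, 2.79 and 8.04 CPM in corn M3.

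What remained of the members in M3 was expressed as a percentage of the same diet's M2 median. The median over the 55 genes was 5.87%, 7.99% and 9.84% in the green bean M3 libraries and 12.6%, 15.9% and 15.2% in the corn M3 libraries. The kept genes gave 79.4%, 108% and 103% on green bean and 138%, 135% and 118% on corn, so kept genes also stood higher in corn M3 on the CPM scale. On the scale of the fit, which uses TMM (trimmed mean of M-values) library factors, the diet difference in M3 over that in M1 and M2 passed for no member, as for 0% of all genes (edgeR, adjusted p under 0.05). At an unadjusted p under 0.05 there were 4 members, against 3.68% of all genes, and DESeq2 called 1, against 0.278%. The median of this log2 difference over the members was 0.25, against 0.02 over all genes. This contrast averages M1 and M2, where the members' median log2 fold changes, green bean over corn, were -0.79 and 0.27. It is therefore not a test of the percentages above, which are relative to M2 alone. The diet difference in M3 over that in M2 alone was not tested. Pairing of same-numbered libraries within a diet was not part of these fits.

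Diet within each section was not used by the rule and was tested as green bean over corn in one edgeR fit of all 18 midgut libraries. In M1 none of the 55 members passed an adjusted p of 0.05, against 0.0217% of all genes tested, while 20 had an unadjusted p under 0.05, against 9.10% of all genes. DESeq2 called 15 members in M1, against 5.63% of all genes. The log2 fold change was negative for 44 of 55 members with a median of -0.79, against 0.16 over all genes. All 3 green bean libraries lay below all 3 corn libraries in CPM for 14 members, against 2.83% of all genes, and above them for 4, against 13.5%. Without corn replicates 2 and 3 the median log2 fold change was -0.41, against 0.07 over all genes, with no member passing, as for 0% of all genes, and 8 at an unadjusted p under 0.05, against 9.91%. Without corn replicate 1 the median was -0.95, against 0.37 over all genes, and 12 members passed, against 6.72%.

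TRINITY_DN2204_c0_g2 had the smallest p among members in M1. It had 2.02, 1.09 and 0.892 CPM in green bean M1, against 18.7, 33.4 and 55.9 CPM in corn M1 (log2 fold change -5.38, SE 0.82, edgeR adjusted p = 0.06095). In M2 the same gene had 17.7, 4.23 and 12.3 CPM on green bean and 11.6, 6.99 and 11.0 CPM on corn, which overlap. For TRINITY_DN580_c0_g1, whose M1 libraries separate by diet as given above, the log2 fold change was -2.30 (SE 0.52, edgeR adjusted p = 0.1453). TRINITY_DN3826_c0_g3 had 296, 297 and 356 CPM in green bean M1, against 528, 996 and 838 CPM in corn M1, also without overlap (log2 fold change -1.98, SE 0.53, edgeR adjusted p = 0.2118). None of these 3 differences passed the correction over all genes.

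In M2 the members were spread to both sides, with a median log2 fold change of 0.27, against 0.18 over all genes, and 29 of 55 positive. One member passed, against 0.5% of all genes tested, and 16 had an unadjusted p under 0.05, against 18.8%. DESeq2 called 12, against 13.8%. Without corn replicates 2 and 3 no member passed, against 0.013% of all genes, and without corn replicate 1 there were 9, against 22.4%. The member that passed was TRINITY_DN12987_c0_g1, with 177, 237 and 307 CPM in green bean M2 and 91.0, 50.3 and 42.7 CPM in corn M2 (log2 fold change 1.60, SE 0.32, edgeR adjusted p = 0.04377). The groups do not overlap, but the call was kept in only 9 of 18 fits that each left out 1 library, and it was lost without corn replicates 2 and 3 (adjusted p = 0.3234). In M1 the gene had 81.8, 87.8 and 165 CPM on green bean and 130, 43.3 and 54.0 CPM on corn, and in M3 10.1, 11.0 and 22.4 CPM on green bean and 20.2, 14.9 and 8.18 CPM on corn, with overlap in both sections. In CPM, 6 members lay lower on green bean than on corn in M2 without overlap, against 6.09% of all genes, and 20 lay higher, against 17.2%.

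In M3 no member passed, as for 0% of all genes, with 13 members at an unadjusted p under 0.05, against 7.89%, and 9 called by DESeq2, against 3.9%. The median log2 fold change was -0.53, against 0.00 over all genes. That direction rests on the corn libraries used, since without corn replicates 2 and 3 the median was 0.31, against 0.08 over all genes, and without corn replicate 1 it was -0.76, against 0.16. In CPM the green bean libraries lay below the corn libraries without overlap for 12 members, against 11.6% of all genes, and above them for 3, against 2.75%.

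Over the mean of M1 and M2, 7 members differed by diet, against 5.36% of all genes, with 26 at an unadjusted p under 0.05, against 29.7%. Of the 7, 1 member was higher on green bean, against 2.49% of all genes, and 6 were lower, against 2.87%. All genes tested include many of lower level than the members. Of the 4854 kept genes, which like the members had m2 of at least 10, 553 were called, 377 higher and 176 lower on green bean. The higher member was TRINITY_DN12987_c0_g1 (log2 fold change 0.90, SE 0.22, edgeR adjusted p = 0.03332). The lower member with the largest change was TRINITY_DN2204_c0_g2 (log2 fold change -2.82, SE 0.52, edgeR adjusted p = 0.01386), which passed in all 18 fits that left out 1 library. Next came TRINITY_DN3927_c0_g1 (log2 fold change -2.33, SE 0.52, edgeR adjusted p = 0.02537), lower on green bean than on corn without overlap in M1 and in M2. TRINITY_DN11926_c0_g1 and TRINITY_DN1971_c0_g1 gave -2.26 and -1.73 (edgeR adjusted p = 0.02749 and 0.04667). The other 2, named after their values were seen, were TRINITY_DN3250_c0_g2 at -2.32 and TRINITY_DN3871_c0_g1 at -1.11 (edgeR adjusted p = 0.02912 and 0.04395). With 1 library left out, the call was kept in 11 of 18 fits for TRINITY_DN12987_c0_g1, in 10 each for TRINITY_DN3927_c0_g1 and TRINITY_DN11926_c0_g1, in 9 for TRINITY_DN3250_c0_g2, and in 4 each for TRINITY_DN1971_c0_g1 and TRINITY_DN3871_c0_g1. Same-numbered M1 and M2 libraries of one diet deviated together, so these p-values may be too small. Without corn replicates 2 and 3, which leaves 1 corn library in a section that is assumed to vary like the other groups, none of the 7 passed, as 0.00435% of all genes did. Without corn replicate 1 the number of members called was 24, against 33.9% of all genes, and DESeq2 called 24, against 19.3%.

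**Figure D4:**
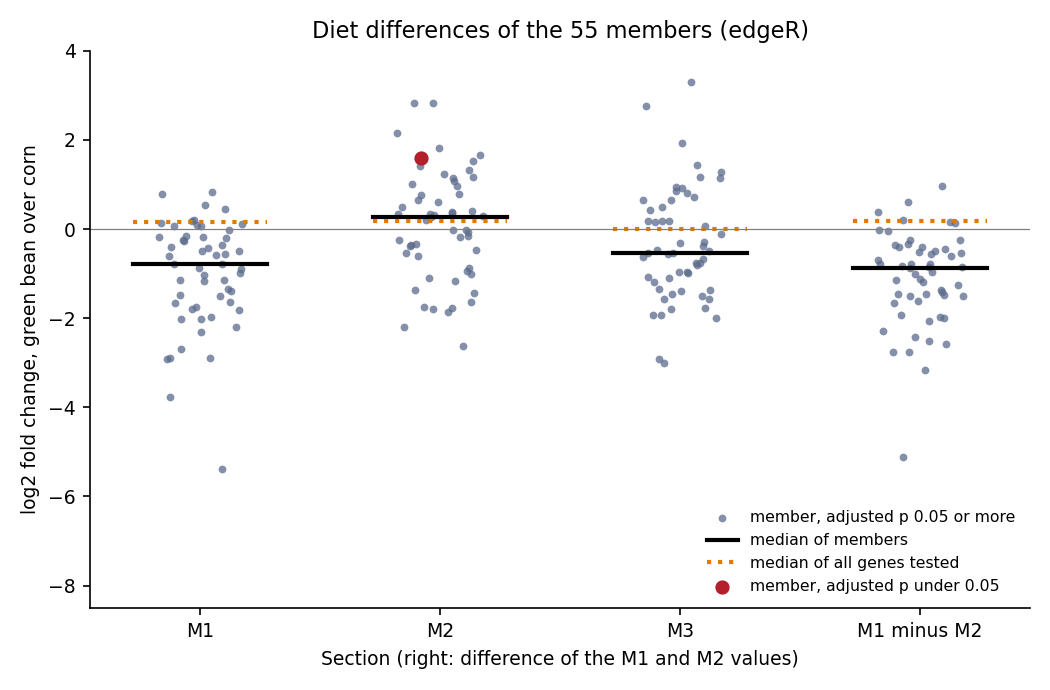
log2 fold change of green bean over corn for each of the 55 members (points) in M1, M2 and M3, and the difference of the M1 and M2 values. Black bars mark the median of the members and dotted orange bars that of all 23008 genes tested, and the red point is TRINITY_DN12987_c0_g1 in M2. Members lie mostly below 0 in M1 and in the difference, and on both sides of 0 in M2.

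The balance between M1 and M2 lay further towards M2 on green bean than on corn for nearly all members. On green bean the median m1/m2 was 0.694 and on corn 1.56, and the ratio was lower on green bean for 53 of 55 members (96.4%). Among partly lower genes the median m1/m2 was 0.890 on green bean and 1.21 on corn, lower on green bean for 80.5%. Kept genes gave 0.904 on green bean and 0.762 on corn, lower on green bean for 28.1%. The ratio was under 0.5 on green bean for 18 members and on corn for 1, and over 2 on green bean for 1 member and on corn for 19. On green bean 35 members had m1 below m2, against 14 on corn. The rule takes medians over both diets, in which opposite departures can offset each other, and its part in this pattern was not tested.

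On the TMM scale the difference of diet effects, M1 over M2, was negative for 49 of 55 members with a median log2 value of -0.88, against 0.18 over all genes. None passed an adjusted p of 0.05, as for 0% of all genes (edgeR). At an unadjusted p under 0.05 there were 14 members, against 3.34%, and DESeq2 called 4, against 0.356%. These fits used group means only, without the pairing of same-numbered M1 and M2 libraries within a diet. The direction was the same in both kinds of corn library. Without corn replicates 2 and 3 it was negative for 48 members with a median of -1.03, and without corn replicate 1 for 50 members with a median of -1.10. TRINITY_DN2204_c0_g2 had the smallest p (log2 difference -5.13, SE 1.02, edgeR adjusted p = 0.7138), followed among the members described above by TRINITY_DN12987_c0_g1 (-1.40, SE 0.44) and TRINITY_DN580_c0_g1 (-2.29, SE 0.72), neither of which passed.

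Salivary gland libraries were not used by the rule. In corn glands 27 of 55 members (49.1%) had a median under 1 CPM, against 28 of 133 partly lower genes (21.1%) and 112 of 4854 kept genes (2.31%). The median gland level was 1.13 CPM for members, 6.42 CPM for partly lower genes and 15.1 CPM for kept genes. Their median m2 was 45.6, 79.3 and 35.7 in the same order, so the sets also differ in midgut level. In green bean glands 27 members were again under 1 CPM, against 26 partly lower genes (19.5%) and 76 kept genes (1.57%). The members held 0.0506% ± 0.0138 of counts in green bean glands and 0.0594% ± 0.00634 in corn glands (SD, n = 3 each), below their share in M3. For 41 members the corn gland median lay at or below the corn M3 median, and for 14 above it. The other sets were also lower in corn glands than in M3 by their medians. Kept genes had 15.1 CPM against a median m3 of 38.2, and partly lower genes 6.42 CPM against 27.4. Lower levels in glands than in M3 were thus not particular to the members.

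**Figure D5:**
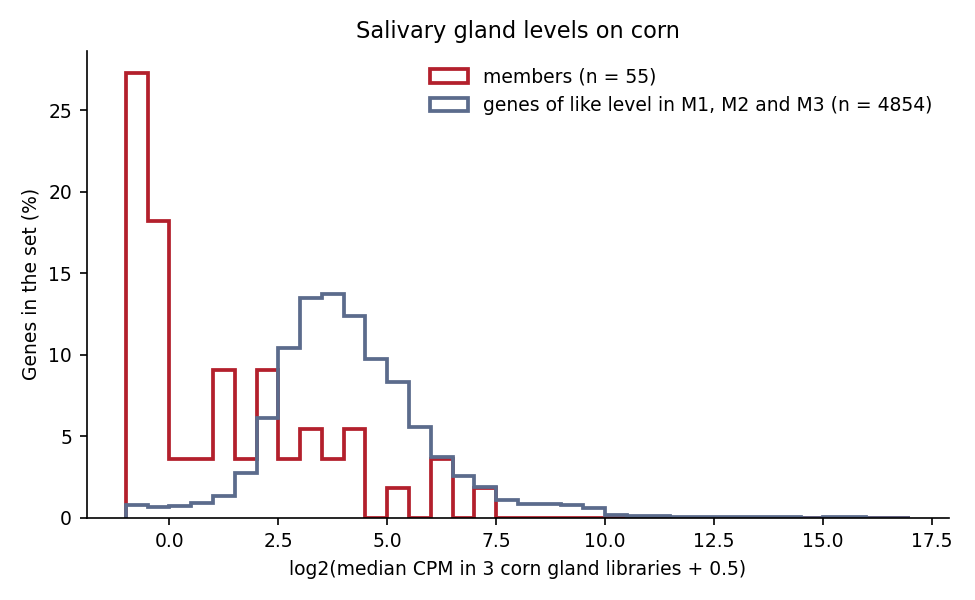
Share of genes in each set by log2 of the median CPM in the 3 corn gland libraries plus 0.5, for the 55 members (red) and the 4854 genes of similar level in M1, M2 and M3 (blue). The members pile up at the left end, where 27 of them lie under 1 CPM, and the kept genes centre near 15.1 CPM.

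The highest member in corn glands by CPM was TRINITY_DN340_c0_g2, with 131, 171 and 247 CPM in the table of all corn libraries. Those glands lay below corn M1 at 601, 1052 and 597 CPM and above corn M3 at 80.8, 76.2 and 86.2 CPM. On corn, TRINITY_DN177_c0_g1 was the only member whose median was higher in glands than in every midgut section. It had 87.9, 83.8 and 103 CPM in corn glands, against 29.1, 22.0 and 33.8 CPM in corn M1, 31.9, 41.5 and 26.7 CPM in corn M2 and 4.11, 4.47 and 3.58 CPM in corn M3. Between diets, in the table of gland libraries, it had 30.5, 20.9 and 28.2 CPM in green bean glands and 96.2, 91.9 and 113 CPM in corn glands, without overlap (log2 fold change -1.86, SE 0.23, edgeR adjusted p = 0.05909). On green bean, where glands and midgut stand in separate tables, its midgut levels were 30.5, 39.7 and 37.8 CPM in M1 and 63.4, 66.3 and 49.4 CPM in M2, with both medians above that of glands. Of 33 members that passed the filter on low counts in glands, none passed the diet test there, against 0.118% of 12741 genes, with 9 at an unadjusted p under 0.05, against 10.2%, and 5 called by DESeq2, against 3.15%.

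Several members are sums over many assembled isoforms, among which the division of shared reads is uncertain. The 55 members have 231 isoforms, 16 members have a single one, and 1 member has 21. Of 122 isoforms with at least 1 CPM in M2, 86 had m2/m3 of at least 5 themselves and 9, in 6 members, had m2/m3 under 2. Within TRINITY_DN580_c0_g1 the isoform TRINITY_DN580_c0_g1_i7 had section medians of 2803 CPM in M1, 4226 CPM in M2 and 361 CPM in M3, and TRINITY_DN580_c0_g1_i10 had 1113, 1658 and 131 CPM, so both were lowest in M3. In TRINITY_DN1971_c0_g2 the isoform TRINITY_DN1971_c0_g2_i1 held 86.3% of the gene's M2 counts, with 480 CPM in M2 and 93.7 CPM in M3. TRINITY_DN340_c0_g2 was mixed. TRINITY_DN340_c0_g2_i16 had 505, 345 and 31.6 CPM in M1, M2 and M3, whereas TRINITY_DN340_c0_g2_i14 had 4.14, 5.66 and 10.6 CPM and was highest in M3.

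More than 1 member came from each of 3 assembly components, sets of genes built from overlapping reads. TRINITY_DN187_c0 contributed 3 members, TRINITY_DN1971_c0 2 and TRINITY_DN1538_c2 2, and every gene of these 3 components in the assembly was a member. Near-identical copies can share reads, so these 7 members are not independent of one another.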

How the data were processed

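RNA-seq of salivary glands and midgut sections was deposited as 3 tables of estimated counts per assembled transcript (298322 transcripts, whole numbers as deposited). The submitters' processing notes name DESeq2 1.20.0, Salmon 0.12 and Trim Galore 0.4.4 without stating the step of each. How the estimated counts were made whole is not stated. Every column matched a labelled library. A member's corn midgut count differed between the tables that hold it by at most 15.6%, so tests stayed within a table.

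Counts were summed to Trinity genes. CPM used the column total of each library, and the rule was applied with a pseudocount of 0.5. Its cap of 300 genes was not reached. Counts were tested in R 4.3.3 with edgeR 4.0.16 (filterByExpr, TMM, glmQLFit with robust dispersion, glmQLFTest, two-sided, Benjamini-Hochberg over all genes tested). The midgut fit held 23008 genes with 99.4% of counts, all 55 members among them, and the gland fit 12741 genes with 99.5% of counts and 33 members. TMM factors ran from 0.518 to 1.58 in the midgut libraries. The code was tested on simulated data. Alternatives were DESeq2 1.42.0, its size factors, no filter, a replicate block, the lead isoform of each gene, fits without single libraries, without corn replicates 2 and 3 or without corn replicate 1, and other forms of the rule.

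Chi-square per degree of freedom between replicates of a group was 54.2 to 498 over 24 pairs, where sampling noise alone gives 1, so no pair looked like 1 library deposited again. The labels give the same replicate numbers in every group. Deviations of same-numbered libraries correlated over 0.1 for every number between corn M2 and M3, corn M1 and M2, green bean M1 and M2, and green bean M1 and M3, so the numbers were taken to pair those sections.

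Named genes were the 6 with highest m2, the 3 with highest m2/m3, and per test the 2 called members with the largest change each way. Also named were the 2 genes nearest each side of the m2/m3 threshold and the 2 highest in corn glands. Named as well were the 2 with the highest isoform median in M3, whether or not that isoform fell from M2. Members, lists and alternatives were chosen with earlier results of these data known. No annotation or sequence of these transcripts was used here.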

Additional observations from a re-analysis of the deposited data

Results flagged for a closer look

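TRINITY_DN3927_c0_g1 reached 4.35 CPM in corn M3 replicate 3, while the other 5 M3 libraries held 0.236 to 1.19 CPM. TRINITY_DN11926_c0_g1 reached 2.40 CPM in the same library, against 0.147 to 0.709 CPM in the other M3 libraries. In both genes the gap to the next library, divided by the range of the 6 libraries, was 0.767 and 0.750, above Dixon's 95% critical value for 6 libraries. Over all 55 members and the 3 sections there were 17 such libraries in 165 member and section pairs, 13 of them in M3 and 5 of them in green bean M3 replicate 2. The critical value assumes 6 draws from 1 normal distribution, whereas unlogged CPM of both diets were used. Its nominal rate of 1 in 20 is therefore not the chance rate here. Members of 1 library are also not independent of each other.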

How the results depend on the processing

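The number of member genes, 55, was 41 to 70 with 1 library left out, 23 at m2/m3 of at least 10, 29 on corn libraries alone and 122 isoforms (of 101 genes) under the rule for single isoforms. On TMM-scaled CPM it was 59, of which 46 were members. Without the highest member the share of counts was 0.539% in green bean M1 and 0.730% in corn M1, 0.675% and 0.664% in green bean and corn M2, and 0.0671% and 0.125% in green bean and corn M3. For the single isoforms these shares were 1.48% and 2.39%, 2.35% and 1.91%, and 0.146% and 0.219%.

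Counts of members called for diet depended on the tool and on single libraries, and the cause was not tested. With DESeq2 they were 15 in M1 (5.63% of all genes), 12 in M2 (13.8%), 9 in M3 (3.9%), 24 over M1 and M2 (19.3%), 1 and 4 for the differences of M3 and of M1 from the other sections (0.278% and 0.356%), and 5 in glands (3.15%). With no filter on low counts they were 7, 6, 10, 11, 1, 4 and 7, against 1.38%, 0.248%, 4.17%, 4.33%, 0.0351%, 0.0325% and 0.406% of the genes then tested. DESeq2 size factors gave 1 in M1 (0.1%) and 11 over M1 and M2 (6.01%), and the lead isoform gave 0 in M2 (0.191%) and 2 over M1 and M2 (2.85%). A replicate block gave 2 in M1 (0.187% of all genes), 2 in M2 (1.04%) and 22 over M1 and M2 (12.8%). For diets within a section the numbers do not pair the samples, with same-number correlations of -0.198 to 0.0605 in midgut and -0.0578 to 0.190 in glands. Without corn replicates 2 and 3 the counts were 0 in M2 (0.013%) and 0 over M1 and M2 (0.00435%), and without corn replicate 1 they were 12 in M1 (6.72% of all genes), 9 in M2 (22.4%) and 24 over both (33.9%). A fit of M2 alone gave 0 (0.135%). With 1 library left out the ranges were 0 to 1 in M1, 0 to 5 in M2, 0 to 0 in M3, 1 to 18 over M1 and M2, 0 to 0 for both differences and 0 to 1 in glands. Over M1 and M2 the count was 17 without corn M1 replicate 1 (13.9% of all genes) and 18 without corn M2 replicate 1 (14.7%), and it was 1 to 4 without any other single M1 or M2 library (1.68% to 3.96%). Of 201 alternative values for the called members, 201 kept their direction and 114 passed. These members were picked for passing in the main fit, and the alternatives reuse largely the same libraries. A kept direction is therefore little of a check.

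Genes chosen on corn and lower in green bean M3 numbered 19 to 24 against M2 and 19 to 23 against M1 with 1 library left out. Those chosen on green bean and lower in corn M3 numbered 30 to 52 and 64 to 76. With a replicate block these 4 counts were 24, 23, 67 and 78, against 4.75%, 10.2%, 4.4% and 10.3% of all genes. The block spanned all 3 sections of a diet. Yet replicate number 2 correlated at only 0.0370 between green bean M2 and M3 and at 0.0171 between corn M1 and M3. The counts of 24 and 78 therefore use a pairing in which numbers 1 and 3 correlated over 0.1 but number 2 did not. At a gland threshold of 5 CPM, 41 members lay below it. Depth limits the members near 0 in M3, where 3 counts are 0.0884 to 0.168 CPM.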

Other observations

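Some pairs of members moved together from library to library. TRINITY_DN2943_c0_g1 had 645, 75.9 and 353 CPM in green bean M2 (replicates 1 to 3) and 59.5, 155 and 47.8 CPM in corn M2. TRINITY_DN2943_c1_g1, a member from a neighbouring component with the same read cluster number, had 222, 27.9 and 146 CPM in green bean M2 and 27.4, 63.0 and 38.4 CPM in corn M2. Both were highest in replicate 1 and lowest in replicate 2 on green bean, and highest in replicate 2 on corn. TRINITY_DN3927_c0_g1 and TRINITY_DN11926_c0_g1 likewise kept the same order of libraries in green bean M2, with 90.7, 150 and 176 CPM for one and 36.9, 70.0 and 96.4 CPM for the other. Whether such pairs are pieces of 1 transcript, copies, or separate genes was not tested.

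TRINITY_DN187_c0_g3 had no count in corn M2 replicate 3 or corn M3 replicate 3, but 26.4 and 22.6 CPM in the other corn M2 libraries and 74.0 CPM in corn M1 replicate 3. In glands, TRINITY_DN580_c0_g1 had 186, 6.83 and 157 CPM on green bean and 8.83, 14.7 and 39.5 CPM on corn, with green bean replicate 2 below all corn libraries (log2 fold change 2.49, SE 1.15, edgeR adjusted p = 0.5490). These genes were chosen for mention after their values were seen.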
